A study of Homo sapiens with 12 samples.

Results

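The genes described here are zinc finger genes of the ZNF series, whose names are the letters ZNF followed by digits. Members were the loci of the deposited FPKM table that carry such a name alone, with a mean of at least 3 FPKM over the 12 libraries. FPKM is a fragment count divided by transcript length in kilobases and by a scale for the library. How the authors set that scale is not given in the sources used here. ZNF367 was left out by the rule. Of 352 loci with such a name, 86 were members, among 55598 loci in all. A further 69 had a mean of 1 to 3 FPKM, 130 lay above 0 and below 1, and 67 were listed at 0 in all libraries. The mean level chose the members, so their abundance is a description. The last members inside the minimum were ZNF276 at 3.08, ZNF133 at 3.04 and ZNF687 at 3.02 FPKM, and the first loci outside it were ZNF326 at 2.96, ZNF337 at 2.94 and ZNF785 at 2.91 FPKM. ZNF genes merged by the authors' assembly into loci that name several genes (122 loci, 43 of them with a mean of at least 3 FPKM) were not members.

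The cells were U87MG, an established human glioblastoma line, kept for 24 hours in 1 of 4 conditions. These were hypoxia (1% O2) with acidosis at pH 6.0, hypoxia at pH 7.4, normoxia with acidosis at pH 6.0, and normoxia at pH 7.4. Lysates were separated by ribosome density into a monosome fraction, which also holds free RNA, an oligosome fraction and a polysome fraction. The 12 libraries were 1 per condition and fraction. No difference between conditions therefore has a replicate check, and sizes are given without p-values. All 12 libraries came from 1 line, and no oxygen percentage for normoxia is given in the sources used here.

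ZNF genes are the largest family of human transcription factor genes. Most of their proteins read DNA with C2H2 fingers, small folds in which a pair of cysteines and a pair of histidines hold a zinc ion. Many carry a KRAB box near the start of the protein, which recruits the corepressor TRIM28 and with it the histone methyltransferase SETDB1, and much of this silencing falls on transposable elements. KRAB genes lie in clusters that are densest on chromosome 19. Other ZNF proteins do not bind DNA in this way and act on RNA, on ribosomes or on other proteins. An mRNA that many ribosomes translate at once sediments with polysomes, and one with few or no ribosomes sediments with monosomes or above them.

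Depth differed between libraries. By the smallest steps in the FPKM values, 1 fragment per kilobase was worth 0.0529 to 0.212 FPKM. Relative to the normoxia monosome library, depth was 0.625 to 2.52, and the 4 monosome libraries were the 4 shallowest. Between 30.6% and 71.2% of a library's FPKM belonged to its top 100 loci, with the hypoxia-with-acidosis monosome library at the upper end. Over the 8 monosome and polysome libraries, about 75.3 to 302 fragments lay behind the median member, with that monosome library the lowest. Of 11 genes chosen as markers of the line, 4 had a mean of at least 3 FPKM at a single-gene locus, VIM, ANXA2, TNC and FN1. GFAP, OLIG2, S100B, CHI3L1 and NES lay below 1 FPKM, and CD44 and SOX2 had no locus of their own. Of 12 markers of other cell types, 7 had a single locus, and of these SNAP25, KRT19 and EPCAM lay above 1 FPKM, with SNAP25 the highest (4.5 FPKM). Among the 86 members, 46 overlap another gene on the opposite strand in GENCODE release 29 and 6 on the same strand. The kit was stranded, but strand use in the authors' counting is not given in the sources used here, so reads of such partners may be shared. Near-identical fingers of neighbouring family members can likewise share reads.

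Members were mostly scarce mRNAs, and their median level lay within a narrow range over the 4 conditions. The level of a gene is its mean FPKM over the 3 fractions of a condition, weighted by the authors' RNA factors. The median level of the 86 members was 5.38 in hypoxia with acidosis, 5.42 in hypoxia, 5.25 in normoxia with acidosis and 5.55 in normoxia (FPKM). Over the 6741 background loci, which include the members, name 1 gene, leave out small RNA and have a mean of at least 3 FPKM, it was 12.8 in hypoxia with acidosis, 11.5 in hypoxia, 11.5 in normoxia with acidosis and 11.7 in normoxia (FPKM). FPKM is scaled to each library, so a level is relative to the other RNA of its libraries. The number of cells and the RNA per cell cannot be read from it.

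ZNF706, a very short protein with a single finger by the pattern search, was by far the most abundant member. ZNF706 had 169, 75.6 and 63.8 FPKM in the monosome, oligosome and polysome fractions of hypoxia with acidosis, 71.6, 85.7 and 35.8 FPKM in those of hypoxia, 55.5, 116 and 77.4 FPKM in those of normoxia with acidosis and 59.4, 119.9 and 68.4 FPKM in those of normoxia. The polysome fraction was its lowest fraction in both hypoxic conditions. ZNF428 followed at a mean of 33.3 FPKM, ZNF787 at 27.8, ZNF22 at 26.5 and ZNF277 at 25 FPKM. ZNF524, ZNF330 (a nucleolar protein), ZNF146, ZNF264 and ZNF384 completed the 10 most abundant, with means of 18 to 13.7 FPKM. Only 5 members had a mean of at least 20 FPKM and 22 of at least 10 FPKM.

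Translation efficiency (TE) followed the series' definition, polysome over monosome abundance. Here 1 is added to each FPKM value, the quotient is called the TE ratio, and TE is its log2. In 3 of the 4 conditions the median ZNF mRNA had a lower TE than the median locus, and in hypoxia with acidosis a higher one. The higher median in hypoxia with acidosis did not hold in every group of loci of like abundance or transcript length (given below). The lower medians had an exception too. Among the most abundant loci, with 5 members, the median TE ratio in normoxia with acidosis was 1.39 for members and 1.33 for background loci. The members' median TE ratio was 1.31 in hypoxia with acidosis, 0.861 in hypoxia, 0.961 in normoxia with acidosis and 1.03 in normoxia. The median over the background loci was 1.18 in hypoxia with acidosis, 1.25 in hypoxia, 1.29 in normoxia with acidosis and 1.34 in normoxia. Members above the background median numbered 50 in hypoxia with acidosis, 21 in hypoxia, 26 in normoxia with acidosis and 27 in normoxia, of 86.

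The fraction that held the highest FPKM of each gene showed the same pattern. It was the polysome fraction for 51 of 86 members in hypoxia with acidosis (59.3%, against 48.8% of background loci). In hypoxia it was the polysome fraction for 16 members (18.6%, against 50.7%). In normoxia with acidosis the share was 25.6% of members against 49.2% of background loci, and in normoxia 31.4% against 52.3%. The oligosome fraction was the peak of 35 members in normoxia (40.7%, against 27.3% of background loci) and of 12 in hypoxia with acidosis (14% against 17%).

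**Figure D1:**
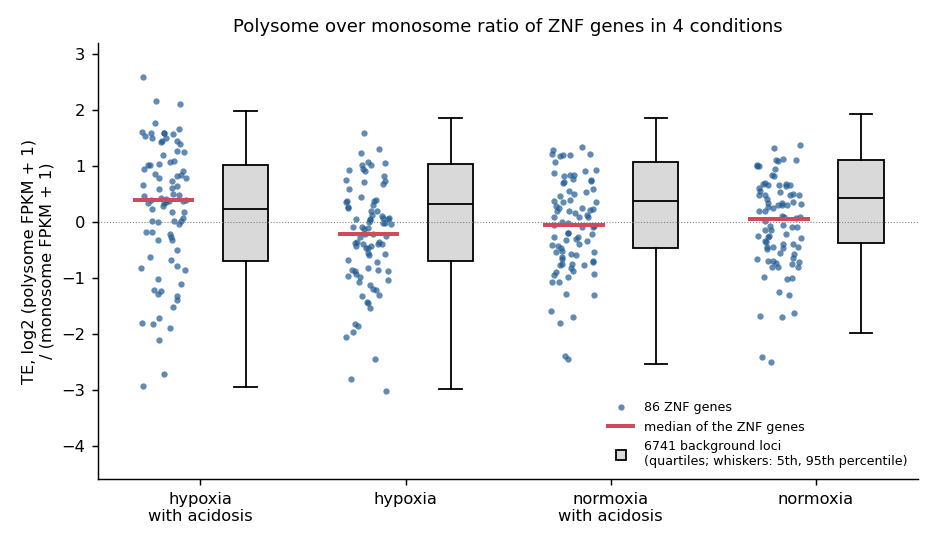
TE (log2 of polysome over monosome FPKM, each plus 1) of the 86 ZNF genes (points, red bar at their median) beside the 6741 background loci (boxes with quartiles and whiskers at the 5th and 95th percentile), 1 library per condition and fraction. The ZNF median lies below the background median in hypoxia, normoxia with acidosis and normoxia, and above it in hypoxia with acidosis (0.39 against 0.24).

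ZNF146, a protein that is almost only fingers, stood among the 5 highest TE ratios in every condition. ZNF146 had 4.54, 18.4 and 32.4 FPKM in the monosome, oligosome and polysome fractions of hypoxia with acidosis, 4.61, 23.1 and 12.1 FPKM in those of hypoxia, 6.65, 22.1 and 17.6 FPKM in those of normoxia with acidosis and 8.56, 31.6 and 22.9 FPKM in those of normoxia. Its TE ratio was 6.03 in hypoxia with acidosis, 2.34 in hypoxia, 2.43 in normoxia with acidosis and 2.5 in normoxia. Its monosome value was lowest where its polysome value was highest. The gene overlaps ZNF565 on the opposite strand. ZNF770 and ZNF330 were also among the 5 highest of 86 in 2 conditions each. The TE ratio of ZNF770 was 1.01 in hypoxia with acidosis, 2.08 in hypoxia, 1.51 in normoxia with acidosis and 2.16 in normoxia, and that of ZNF330 was 2.04 in hypoxia with acidosis, 1.03 in hypoxia, 2.28 in normoxia with acidosis and 2.14 in normoxia. ZNF212 held the highest TE ratio in normoxia, at 2.6. With hypoxia the highest was ZNF292 (3.0), and in normoxia with acidosis it was ZNF259 (2.53), the older name of ZPR1, a zinc finger protein that binds receptor kinases.

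At the other end, ZNF271 stood among the 5 lowest TE ratios in all 4 conditions. ZNF271 had 11, 8.88 and 2.37 FPKM in the monosome, oligosome and polysome fractions of hypoxia with acidosis, 15.2, 13.9 and 1.32 FPKM in those of hypoxia, 10.2, 15.5 and 2.42 FPKM in those of normoxia with acidosis and 19.3, 24.2 and 2.59 FPKM in those of normoxia. GENCODE release 29 annotates ZNF271 as a transcribed unitary pseudogene, the one member with no coding entry. ZNF692 was among the 5 lowest in 3 conditions, with TE ratios of 0.349 in hypoxia with acidosis, 0.123 in hypoxia, 0.182 in normoxia with acidosis and 0.188 in normoxia. ZNF883, a name that GENCODE gives both to a coding gene and to a pseudogene, had TE ratios of 0.27 in hypoxia with acidosis, 0.343 in hypoxia, 0.475 in normoxia with acidosis and 0.308 in normoxia. Its oligosome fraction held more than its polysome fraction in each condition.

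With hypoxia and acidosis together, against normoxia, ZNF mRNAs shifted toward polysomes relative to the median locus. Changes are log2 differences minus the median difference of the background loci. The median TE change of the members was 0.49, and 60 of 86 lay above 0. Past 1.5-fold, 40 members were higher (46.5%, against 29.9% of background loci) and 13 were lower (15.1%, against 30.8%). With TE taken over the oligosome in place of the monosome fraction, which leaves out the shallowest libraries, 36 were higher and 6 lower, against 24.6% and 26.4% of background loci. Under the authors' RNA scaling without centring, which moves the median TE change of all background loci to -0.53, the members' median was -0.025. There 31 members were higher (36.1%, against 16.6% of background loci) and 25 lower (29.1%, against 48.4%). Among the 37 members that overlap no other gene, a split chosen after seeing the data, 13 were higher (35.1%) and 5 lower (13.5%).

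The shift came with lower monosome and oligosome values, more than with higher polysome values. Before centring, the median log2 change of the members' FPKM plus 1 was -0.50 in the monosome, -0.31 in the oligosome and 0.18 in the polysome fraction. Background loci had medians of 0.22, 0.20 and 0.04 in the same fractions. The members' median monosome FPKM was 4.97 in hypoxia with acidosis and 5.52 in normoxia. Their median polysome FPKM was 5.18 in hypoxia with acidosis and 5.17 in normoxia. The monosome library of this condition was also the shallowest and had the largest share in its top 100 loci, and the part of this in the shift was not tested. The shift appeared in the 3 comparisons that contain this library, with median TE changes of 0.49 here, 0.63 for acidosis in hypoxia and 0.53 for hypoxia at pH 6.0, which share its values. In the 2 comparisons without it the medians were -0.02 for acidosis in normoxia and 0.03 for hypoxia at pH 7.4.

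**Figure D2:**
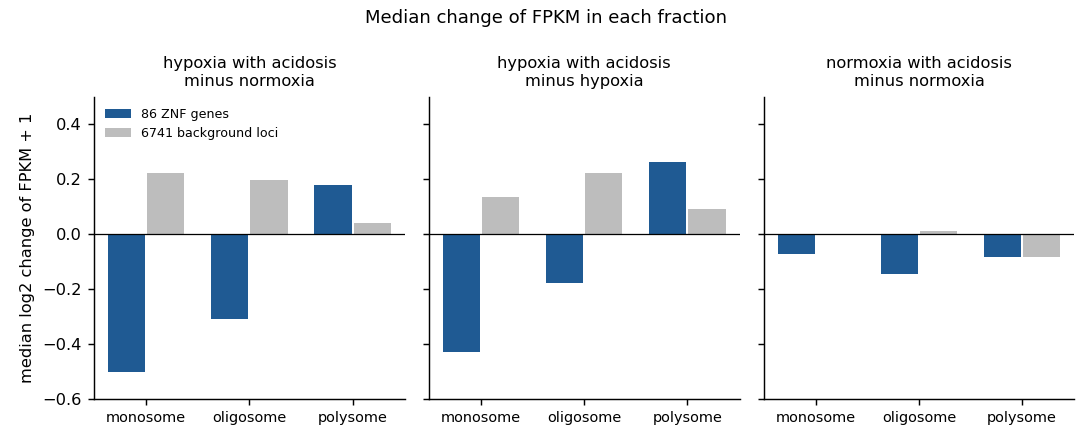
Median log2 change of FPKM plus 1, not centred, in each gradient fraction for the 86 ZNF genes (blue) and the 6741 background loci (grey), in 3 comparisons of conditions with 1 library each. With hypoxia and acidosis together the ZNF median was -0.50 in the monosome and 0.18 in the polysome fraction, while with acidosis in normoxia all 3 medians lay between -0.15 and -0.07.

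Low loci as a class also had higher TE with both stresses, so the members were set beside loci of like abundance. Background loci were cut at 2 points into 3 equal parts by mean FPKM. In the part with the lowest values (3 to 7.29 FPKM), which held 56 members, the median TE change was 0.55 for members and 0.19 for background loci. There 28 members were higher past 1.5-fold, against 33.9% of the loci, and 4 were lower, against 21.1%. In the middle part, with 25 members, the medians were 0.51 and 0.14. The highest part held 5 members, with medians of -0.13 and -0.36. By transcript length, the medians of members and background loci were 0.10 and -0.41 among the shortest, 0.72 and 0.19 in the middle, and 0.34 and 0.28 among the longest. In each of these 6 strata the members' median TE change was the higher one. The part of abundance or length was not tested. TE itself in hypoxia with acidosis was not higher throughout. The median TE ratios of members and background loci were 1.30 and 1.22 in the lowest part. They were 1.33 and 1.34 in the middle part and 0.43 and 0.94 in the highest. By transcript length, median TE was 0.28 and -0.09 among the shortest, 0.39 and 0.43 in the middle, and 0.50 and 0.69 among the longest.

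ZNF532, whose protein forms a chromatin complex with ZNF687 and ZNF592, had the largest TE change with both stresses, at 2.76. ZNF532 had 1.0, 6.98 and 5.03 FPKM in the monosome, oligosome and polysome fractions of hypoxia with acidosis, 13.7, 9.19 and 2.54 FPKM in those of hypoxia, 19.7, 8.93 and 4.94 FPKM in those of normoxia with acidosis and 8.17, 11.8 and 3.55 FPKM in those of normoxia. Its monosome value in hypoxia with acidosis, from about 31.7 fragments, was lower than in each other condition, and its polysome values all lay between 2.54 and 5.03 FPKM. The counting error of its TE in that condition was 0.26 (log2, standard error from fragment counts alone). ZNF521, a large factor with 27 fingers known from blood and neural progenitors, was 4.59-fold higher in TE. It had 4.84 FPKM in the polysome and 0.973 FPKM in the monosome fraction of hypoxia with acidosis, and 3.0 FPKM in the polysome and 4.53 FPKM in the monosome fraction of normoxia. ZNF789, ZNF219 and ZNF408 followed, with TE changes of 2.17, 2.16 and 2.01. ZNF789 overlaps ZNF394 on the opposite strand, and ZNF219 overlaps ARHGEF40 and TMEM253.

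Among the 13 members whose TE fell past 1.5-fold with both stresses, ZNF277 was the most extreme, at -2.44. ZNF277 had 89.1, 41.7 and 10.8 FPKM in the monosome, oligosome and polysome fractions of hypoxia with acidosis, 37, 15.5 and 5.97 FPKM in those of hypoxia, 41.5, 23.7 and 7.04 FPKM in those of normoxia with acidosis and 11.4, 7.19 and 8.87 FPKM in those of normoxia. The protein of ZNF277 binds the small-subunit ribosomal protein RPS2. Monosome values of ZNF277 were higher in each stressed condition than in normoxia, and its polysome values all lay between 5.97 and 10.8 FPKM. ZNF277 overlaps AC004112.1 on the opposite strand. ZNF778 (TE change -2.29) had 1.66 FPKM in the polysome and 16.5 FPKM in the monosome fraction of hypoxia with acidosis, against 4.38 FPKM in the polysome and 5.48 FPKM in the monosome fraction of normoxia. ZNF593, ZNF267 and ZNF195 had TE changes of -2.27, -1.81 and -1.71. ZNF267 and ZNF195 both had over 3 times their normoxia monosome value in hypoxia with acidosis, at 10.4 against 2.17 FPKM and 18 against 5.92 FPKM.

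For acidosis there were 2 separate pairs, hypoxia with acidosis against hypoxia, and normoxia with acidosis against normoxia. In hypoxia 43 members were higher past 1.5-fold and 10 lower, against 28.2% and 28.7% of background loci. In normoxia 16 were higher and 14 lower, against 13.7% and 17.6%. Past 1.5-fold in both pairs, 9 members were higher (against 5.71% of background loci) and 2 were lower (against 7.12%).

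ZNF789 had the largest mean rise in TE with acidosis. ZNF789 had 1.8, 5.42 and 7.07 FPKM in the monosome, oligosome and polysome fractions of hypoxia with acidosis, 4.87, 3.02 and 1.56 FPKM in those of hypoxia, 4.15, 14.1 and 6.44 FPKM in those of normoxia with acidosis and 3.01, 3.85 and 1.88 FPKM in those of normoxia. Both acid conditions had higher polysome values than both conditions at pH 7.4. ZNF521, ZNF584 and ZNF219 passed in both pairs with mean changes of 1.38, 1.16 and 1.05. The other 5 were ZNF259, ZNF264, ZNF271, ZNF3 and ZNF621, with mean changes of 0.73 to 0.93. ZNF638, an RNA-binding nuclear protein that takes part in silencing unintegrated retroviral DNA, and ZNF778 fell past 1.5-fold in both pairs. TE of ZNF638 changed by -1.42 in hypoxia and -0.83 in normoxia, and that of ZNF778 by -1.27 and -1.27. In opposite directions in the 2 pairs, 5 members passed 1.5-fold, against 5.65% of background loci.

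**Figure D3:**
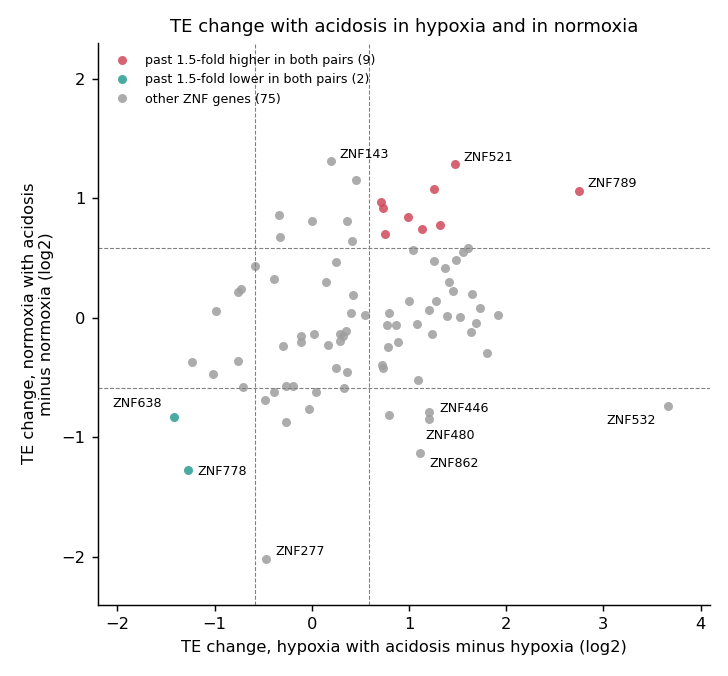
TE change of each ZNF gene with acidosis in hypoxia (horizontal axis) and in normoxia (vertical axis), in log2 relative to the median background locus, with dashed lines at 1.5-fold. Most points lie right of 0 and around 0 on the vertical axis, with ZNF789 high in both pairs, ZNF778 low in both and ZNF532 at 3.66 in hypoxia and -0.74 in normoxia.

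Hypoxia was compared with normoxia at pH 6.0 and at pH 7.4. At pH 6.0, 40 members were higher in TE and 10 lower, against 28.9% and 30.1% of background loci. At pH 7.4, 12 were higher and 19 lower, against 17% and 21.2%. The members' TE change averaged over both pairs had a median of 0.30. Under the authors' RNA scaling without centring that median was -0.36, with the background median at -0.68. Past 1.5-fold in both pairs, 7 members were higher (against 7.76% of background loci) and 5 were lower (against 10.5%). These were 8.14% and 5.81% of the members.

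ZNF579, ZNF219, ZNF521, ZNF668, ZNF574, ZNF710 and ZNF292 were the 7 higher ones. ZNF579 had 18.9 FPKM in the polysome and 9.33 FPKM in the monosome fraction of hypoxia with acidosis, against 7.9 FPKM in the polysome and 14 FPKM in the monosome fraction of normoxia with acidosis. At pH 7.4 it had 11.3 FPKM in the polysome and 12.4 FPKM in the monosome fraction of hypoxia, against 6.53 FPKM in the polysome and 10.8 FPKM in the monosome fraction of normoxia. ZNF219 and ZNF521 thus passed with acidosis and with hypoxia, 2 effects whose pairs draw on the same 4 conditions. The 5 lower ones were ZNF593, ZNF195, ZNF706, ZNF267 and ZNF778, with mean changes of -1.46 to -1.0. ZNF195 had 3.97 FPKM in the polysome and 9.2 FPKM in the monosome fraction of hypoxia, against 6.24 FPKM in the polysome and 5.92 FPKM in the monosome fraction of normoxia. ZNF532, with opposite changes in the pairs, had the highest mean, 1.31. ZNF865, ZNF408 and ZNF335 had mean changes of 1.30, 1.19 and 1.14 without passing at pH 7.4.

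With both stresses the members' median level change was -0.23. A level was called when it passed 2-fold and moved the same way in each of the 3 fractions. By this rule 5 members were higher (5.81%, against 12.4% of background loci) and 16 lower (18.6%, against 13.6%). With acidosis in both pairs 0 members were higher (against 1.36%) and 1 was lower (against 0.297%). With hypoxia in both pairs 1 was higher (against 2.25%) and 0 lower (against 1.25%). In single pairs, hypoxia with acidosis against hypoxia had 3 members higher and 12 lower, against 5.37% and 7.79% of background loci. Normoxia with acidosis against normoxia had 1 higher and 1 lower, against 3.89% and 0.92%. Hypoxia with acidosis against normoxia with acidosis had 4 higher and 5 lower, against 5.83% and 8.83%. Hypoxia against normoxia had 1 higher and 0 lower, against 6.05% and 2.77%. The medians of the mean level changes were -0.14 with acidosis and -0.12 with hypoxia.

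ZNF541, a factor of meiosis in the testis (chromosome 19, 47520685 to 47555856, minus strand, in GENCODE on GRCh38), was the one member called higher in level with hypoxia in both pairs. ZNF541 had 6.05, 7.2 and 5.9 FPKM in the monosome, oligosome and polysome fractions of hypoxia with acidosis, 4.99, 5.18 and 3.06 FPKM in those of hypoxia, 0.916, 1.07 and 0.906 FPKM in those of normoxia with acidosis and 0.987, 1.38 and 1.02 FPKM in those of normoxia. The lowest of its 6 hypoxic values was 3.06 FPKM and the highest of its 6 normoxic values 1.38 FPKM, so these did not overlap. That ordering held for 1.69% of background loci. ZNF541 reached the minimum of 3 FPKM only through the hypoxic libraries, which averaged 5.4 FPKM against 1.05 FPKM in the normoxic ones, so its membership already rests on part of this difference. Its level was 3.23-fold higher with hypoxia at pH 6.0 and 2.45-fold at pH 7.4, relative to the median locus and on the scale of FPKM plus 1, which understates changes of so low a gene. Its TE ratio stayed between 0.677 and 1.02.

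ZNF668, a factor linked to the DNA damage response (chromosome 16, 31060843 to 31074320, minus strand), was the one member called lower in level with acidosis in both pairs. ZNF668 had 0.981, 2.15 and 2.41 FPKM in the monosome, oligosome and polysome fractions of hypoxia with acidosis, 2.97, 6.83 and 6.48 FPKM in those of hypoxia, 3.03, 3.49 and 2.85 FPKM in those of normoxia with acidosis and 6.94, 8.88 and 8.07 FPKM in those of normoxia. In each fraction, and at either oxygen level, the acid library held less than the library at pH 7.4, an ordering that 10.1% of background loci showed. Its acid libraries averaged 2.49 FPKM and those at pH 7.4 6.69 FPKM, so it passed the minimum through the libraries at pH 7.4. Its level changed by -1.37 in hypoxia and -1.12 in normoxia. The monosome value of hypoxia with acidosis rests on about 11.4 fragments.

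RefSeq promoters (build GRCh38.p14, 250 bases before to 50 after a gene's start) are shown for these 2 genes and for ZNF277, the member with the largest level rise with both stresses. Capitals mark ACGTG or its reverse complement CACGT, searched on both strands, and a match to 1 can overlap a match to the other. ACGTG is a form of the core of the element that hypoxia-inducible factors bind, and other forms of that core were not searched. It occurred in a promoter of 23 of 72 members found in the table (31.9%), and of 24.9% of all genes in it. ZNF541 and the ZNF668 promoter shown held 1 match each, and ZNF277 held none. RefSeq lists 3 promoters for ZNF668, and the other 2 held none. The RefSeq start of ZNF541 lies outside the span that GENCODE release 29 gives the gene. A match of 5 letters is a description and not a binding site.
ZNF541, chr19:47573099-47573398, minus strand: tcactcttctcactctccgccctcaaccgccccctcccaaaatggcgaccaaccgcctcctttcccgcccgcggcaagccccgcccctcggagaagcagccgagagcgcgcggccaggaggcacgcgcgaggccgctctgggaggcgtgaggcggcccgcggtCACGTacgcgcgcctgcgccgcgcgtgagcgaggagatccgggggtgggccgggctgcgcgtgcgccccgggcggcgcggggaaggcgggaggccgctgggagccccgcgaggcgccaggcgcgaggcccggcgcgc
ZNF668, chr16:31074191-31074490, minus strand: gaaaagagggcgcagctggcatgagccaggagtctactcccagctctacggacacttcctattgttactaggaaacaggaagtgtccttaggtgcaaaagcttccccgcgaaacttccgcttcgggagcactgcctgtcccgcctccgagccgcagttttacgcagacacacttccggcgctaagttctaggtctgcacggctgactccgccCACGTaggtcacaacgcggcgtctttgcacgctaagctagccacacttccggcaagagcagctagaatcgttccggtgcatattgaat
ZNF277, chr7:112206445-112206744, plus strand: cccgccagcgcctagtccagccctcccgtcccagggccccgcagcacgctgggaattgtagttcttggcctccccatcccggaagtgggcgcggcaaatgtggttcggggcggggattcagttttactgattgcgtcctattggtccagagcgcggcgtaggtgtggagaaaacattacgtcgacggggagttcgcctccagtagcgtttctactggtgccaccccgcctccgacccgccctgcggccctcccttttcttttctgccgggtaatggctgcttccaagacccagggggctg

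**Figure D4:**
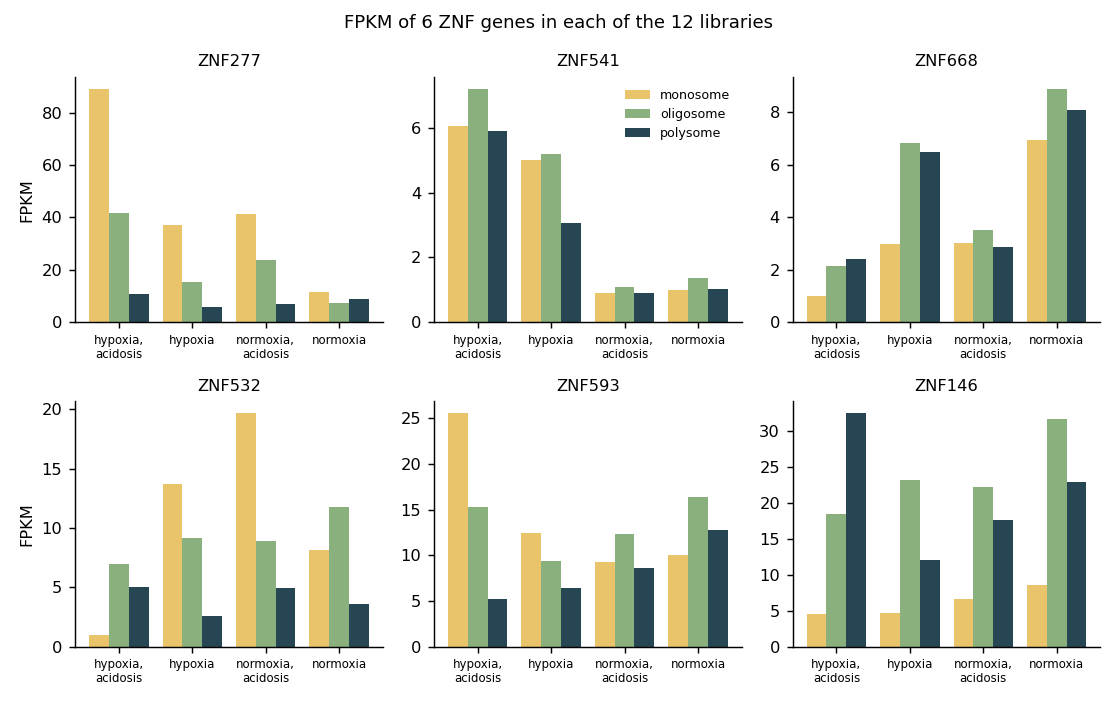
FPKM of 6 ZNF genes in the monosome, oligosome and polysome libraries of each condition, 1 library per bar and each panel on its own linear axis from 0. The ZNF277 monosome bar is highest in hypoxia with acidosis (89.1 FPKM), the ZNF541 bars are high in both hypoxic conditions, the ZNF668 bars are lower in each acid condition, and the ZNF532 monosome bar is lowest in hypoxia with acidosis.

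With both stresses the 5 members called higher in level were ZNF277, ZNF350, ZNF541, ZNF446 and ZNF766. ZNF277 had levels of 34.1 FPKM in hypoxia with acidosis, 14.5 FPKM in hypoxia, 17.5 FPKM in normoxia with acidosis and 8.65 FPKM in normoxia, the largest change among members (1.72). ZNF350, a partner of BRCA1 also called ZBRK1, had levels of 13 FPKM in hypoxia with acidosis, 4.55 FPKM in hypoxia, 3.36 FPKM in normoxia with acidosis and 2.99 FPKM in normoxia. Its value in hypoxia with acidosis was the highest in each of the 3 fractions, at 10.3, 12.5 and 14.3 FPKM, and its TE was higher as well (1.62). ZNF446 and ZNF766 changed by 1.44 and 1.22 in level and by 0.81 and 1.29 in TE. ZNF446 overlaps ZNF324 on the same strand. Of the 5, all but ZNF277 lie on chromosome 19.

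ZNF746, a KRAB factor also called PARIS, had the lowest level change with both stresses (-1.92). ZNF746 had 0.632, 0.729 and 1.1 FPKM in the monosome, oligosome and polysome fractions of hypoxia with acidosis, 2.81, 4.06 and 3.91 FPKM in those of hypoxia, 4.22, 5.08 and 4.65 FPKM in those of normoxia with acidosis and 4.36, 5.96 and 5.61 FPKM in those of normoxia. All 3 values in hypoxia with acidosis lay below every other value of the gene. Its hypoxic libraries averaged 2.21 FPKM and its normoxic ones 4.98 FPKM, so it passed the minimum of 3 FPKM through the normoxic libraries. ZNF668, ZNF703, ZNF24 and ZNF428 followed, at -1.73, -1.52, -1.39 and -1.37. ZNF703 is a growth-promoting factor amplified in breast cancer, and ZNF24 carries a SCAN domain. ZNF428 had levels of 19.6 FPKM in hypoxia with acidosis, 44.1 FPKM in hypoxia, 32.4 FPKM in normoxia with acidosis and 47.1 FPKM in normoxia. The other 11 were ZNF271, ZNF770, ZNF598, ZNF771, ZNF584, ZNF865, ZNF394, ZNF574, ZNF212, ZNF76 and ZNF281, at -1.30 to -1.04. Of these 16, 6 were higher in TE, 9 did not pass in TE, and ZNF770 was lower in TE too (-0.93).

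**Figure D5:**
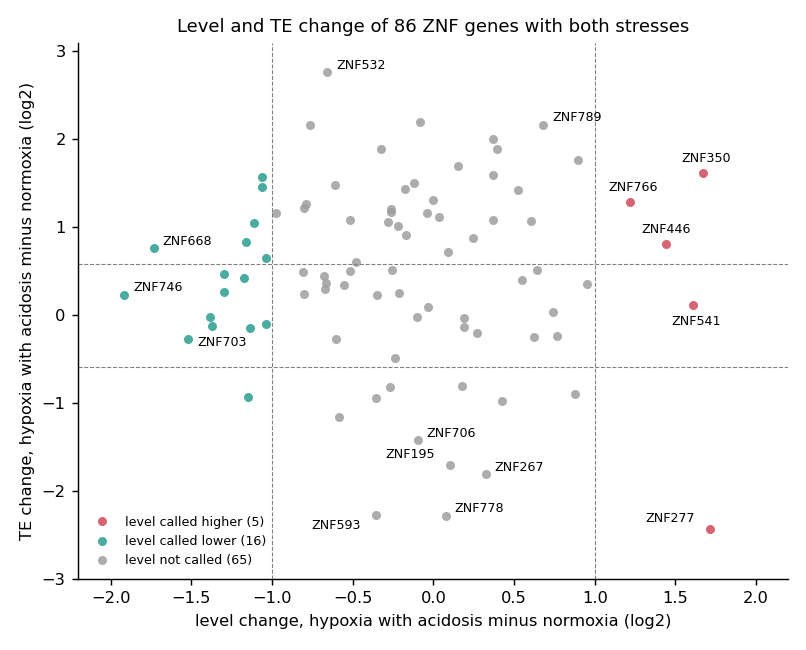
Level change (horizontal axis) and TE change (vertical axis) of the 86 ZNF genes in hypoxia with acidosis against normoxia, in log2 relative to the median background locus, with dashed lines at 2-fold and 1.5-fold. ZNF277 stands alone at the lower right (level 1.72, TE -2.44), and ZNF532 has the highest TE change with a level change of -0.66.

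Proteins were grouped by motifs found in the translation of each gene's longest GENCODE coding sequence, available for 85 members. The number of C2H2 fingers ran from 0 to 27 with a median of 8. ZNF330, ZNF259, ZNF487, ZNF862, ZNF839 and ZNF703 had none by the pattern. A KRAB box was found in 16 members and, with a looser motif added after the first was seen to miss some, in 20. A total of 24 members (27.9%) lie on chromosome 19, against 6.89% of background loci.

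KRAB members had low TE in hypoxia. The median TE ratio of the 16 was 1.08 in hypoxia with acidosis, 0.529 in hypoxia, 0.903 in normoxia with acidosis and 0.945 in normoxia. For the 65 members without the looser motif it was 1.41 in hypoxia with acidosis, 0.99 in hypoxia, 0.981 in normoxia with acidosis and 1.07 in normoxia. These 65 cannot be taken as free of KRAB genes, since a motif can miss a KRAB box. In level, the KRAB members' median change was 0.15 with both stresses, and that of the 65 was -0.26. With hypoxia 0 of the 16 were higher in TE in both pairs and 3 were lower, ZNF195, ZNF778 and ZNF267, against 7.76% and 10.5% of background loci. With both stresses 6 were higher and 5 lower, against 29.9% and 30.8%. ZNF480 is a KRAB gene that was lower in TE with both stresses. ZNF480 had 13.6, 18.5 and 8.16 FPKM in the monosome, oligosome and polysome fractions of hypoxia with acidosis, 16.5, 13 and 3.83 FPKM in those of hypoxia, 6.37, 20.7 and 3.88 FPKM in those of normoxia with acidosis and 5.55, 24.2 and 7.08 FPKM in those of normoxia. The oligosome fraction held its highest value in each condition except hypoxia, where the monosome fraction did.

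The TE change with both stresses was larger in members with more fingers. Its median was 1.03 in the 32 members with 9 or more fingers, 0.45 in the 33 with 4 to 8 and 0.16 in the 20 with 0 to 3. Spearman's rho across the 85 genes was 0.32 for finger number, 0.39 for GC content of the transcript, 0.18 for protein length and -0.05 for transcript length. These genes share the same 4 libraries and are not independent replicates. Over 6005 coding background loci rho was 0.28 for GC content and 0.27 for transcript length. Members had a median GC content of 52% and a median transcript of 3309 bases, against 49.7% and 2734 bases in the background. Members on chromosome 19 had a median TE change of 0.84, and those on other chromosomes 0.44.

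Zinc finger genes of other names gave small groups. The 10 ZBTB genes, whose proteins pair fingers with a BTB domain, had a median TE ratio of 1.04 in hypoxia with acidosis, 0.912 in hypoxia, 0.857 in normoxia with acidosis and 0.754 in normoxia, and a TE change of 0.72 with both stresses. The 3 ZSCAN and ZKSCAN genes had a TE change of 0.68 and the 4 ZFP genes of 0.07.

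TRIM28 is the corepressor that KRAB boxes recruit. It had levels of 135 FPKM in hypoxia with acidosis, 84.9 FPKM in hypoxia, 68 FPKM in normoxia with acidosis and 47.2 FPKM in normoxia, and a TE ratio of 6.24 in hypoxia with acidosis, 1.32 in hypoxia, 0.815 in normoxia with acidosis and 1.74 in normoxia. Its TE was higher with both stresses past 1.5-fold (2.0), while its level change of 1.35 did not go the same way in each fraction. SETDB1, the methyltransferase it brings, had levels between 3.0 and 3.89 FPKM and passed in neither quantity. Of this machinery, 17 listed genes had a single-gene locus with a mean of at least 3 FPKM. UHRF1 and SMARCAD1 lay below that minimum, at 2.82 and 1.85 FPKM. Their level changes with both stresses were -1.72, called lower, and -0.08. Of the 17, with both stresses 0 were higher and 4 lower in level, against 12.4% and 13.6% of background loci. In TE 5 were higher and 6 lower, against 29.9% and 30.8%. The largest called level changes were those of MTA2 (-2.55), SUV39H2 (-1.98) and GATAD2A (-1.95). In TE, besides TRIM28, they were those of the remodeller CHD4 (2.72) and of the heterochromatin proteins CBX3 (-2.35) and CBX5 (-1.54). The list's median TE change was -0.07.

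A list held ZNF genes that act on RNA or ribosomes. Of its 12 genes, 7 had a single-gene locus with a mean of at least 3 FPKM, 6 of them members. The other was ZNF385A, whose name ends in a letter. ZNF326 and ZNF106 lay below that minimum, at 2.96 and 2.69 FPKM. Their TE changes with both stresses were 0.18 and 0.79, and that of ZNF106 passed 1.5-fold. With both stresses 0 of the 7 were higher in TE and 4 were lower, against 29.9% and 30.8% of background loci, and the median TE change was -0.80. ZNF593, a ribosome biogenesis factor of the large subunit, was the lowest of them. ZNF593 had 25.5, 15.3 and 5.16 FPKM in the monosome, oligosome and polysome fractions of hypoxia with acidosis, 12.4, 9.35 and 6.39 FPKM in those of hypoxia, 9.28, 12.3 and 8.63 FPKM in those of normoxia with acidosis and 10.0, 16.4 and 12.8 FPKM in those of normoxia. Its polysome value was lowest, and its monosome value highest, in hypoxia with acidosis. The transcript of ZNF593 is the shortest among members, at 698 bases, and the gene overlaps AL391650.1 on the opposite strand. ZNF706, ZNF638 and ZNF830, a splicing factor, were the other 3, at -1.43, -0.94 and -0.80.

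ZNF598 and ZNF622 did not pass in TE with both stresses, at 0.47 and 0.36. ZNF598 is the ubiquitin ligase that senses collided ribosomes. ZNF598 had 1.83, 4.84 and 6.41 FPKM in the monosome, oligosome and polysome fractions of hypoxia with acidosis, 6.26, 5.63 and 13.6 FPKM in those of hypoxia, 4.0, 5.78 and 9.5 FPKM in those of normoxia with acidosis and 7.19, 9.15 and 16.3 FPKM in those of normoxia. Its level fell with both stresses (-1.29), and its TE ratio stayed between 2.01 and 2.61. ZNF622, which acts late in maturation of the large subunit, had levels of 21.1 FPKM in hypoxia with acidosis, 11 FPKM in hypoxia, 7.26 FPKM in normoxia with acidosis and 9.32 FPKM in normoxia and TE ratios of 1.22 in hypoxia with acidosis, 1.04 in hypoxia, 1.41 in normoxia with acidosis and 1.06 in normoxia. Its level change with both stresses, 0.95, was just short of 2-fold. ZNF385A had levels of 20.9 FPKM in hypoxia with acidosis, 21.5 FPKM in hypoxia, 11.9 FPKM in normoxia with acidosis and 9.41 FPKM in normoxia and was called in neither quantity.

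Of 6 genes listed for links to hypoxia, ZNF292, ZNF217 and ZNF281 were members. ZNF292, a large factor with 14 fingers, was higher in TE with hypoxia in both pairs, with 8.33 FPKM in the polysome and 2.11 FPKM in the monosome fraction of hypoxia, against 5.16 FPKM in the polysome and 2.1 FPKM in the monosome fraction of normoxia. The oncogene ZNF217 had TE ratios of 1.72 in hypoxia with acidosis, 2.09 in hypoxia, 0.827 in normoxia with acidosis and 1.57 in normoxia, higher in each hypoxic condition than in the normoxic one of the same pH. It did not pass at pH 7.4. ZNF281, a factor of stemness and epithelial-mesenchymal transition, had levels of 1.13 FPKM in hypoxia with acidosis, 3.98 FPKM in hypoxia, 4.37 FPKM in normoxia with acidosis and 3.73 FPKM in normoxia, and was called lower with both stresses. ZNF395, a known target of hypoxia-inducible factors, is not a member, since the authors' locus joins it with FBXO16 and a noncoding gene. That locus had levels of 103 FPKM in hypoxia with acidosis, 113 FPKM in hypoxia, 15.7 FPKM in normoxia with acidosis and 21.8 FPKM in normoxia.

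Some members with known roles in transcription or silencing were picked after their values were seen. ZNF143, which binds many promoters and chromatin loop anchors, had levels of 4.31 FPKM in hypoxia with acidosis, 5.03 FPKM in hypoxia, 4.66 FPKM in normoxia with acidosis and 6.62 FPKM in normoxia, and TE ratios of 0.705 in hypoxia with acidosis, 0.625 in hypoxia, 1.47 in normoxia with acidosis and 0.613 in normoxia. Its paralog ZNF76 was called lower in level with both stresses, at 1.74 FPKM against 4.58 FPKM in normoxia. ZNF384, known from leukaemia fusions, had TE ratios of 1.31 in hypoxia with acidosis, 0.547 in hypoxia, 0.631 in normoxia with acidosis and 0.593 in normoxia, and was called higher with both stresses. ZNF335, a factor needed for neural progenitors, had 4.63 FPKM in the polysome and 1.99 FPKM in the monosome fraction of hypoxia with acidosis, against 3.32 FPKM in the polysome and 6.59 FPKM in the monosome fraction of normoxia, a TE change of 1.89. ZNF274, which marks the ends of ZNF genes for silencing, had TE ratios of 0.996 in hypoxia with acidosis, 0.827 in hypoxia, 0.741 in normoxia with acidosis and 0.844 in normoxia and was called in neither quantity.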

How the data were processed

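RNA of 12 gradient fractions was sequenced, 1 library per condition and fraction, with no replicates. Per the submitters' processing notes, bcl2fastq, STAR 2.5.0, Cufflinks 2.2.1, Cuffnorm and GRCh38 were used. The FPKM values are those the authors deposited. The authors' RNA-scaled values (signal) are the deposited FPKM multiplied by 1 factor per library, which held on 271513 of 271513 lines within 1e-06. A further 22 columns of per-sample values were not used.

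Members and gene lists were chosen with earlier results of these data known. The level is the FPKM mean of 3 fractions weighted by those factors. TE is log2 of polysome over monosome FPKM, each plus 1. Changes were centred on the median of 6741 loci with 1 gene name, small RNA left out, and a mean of at least 3 FPKM. Calls were sizes, not tests: 2-fold for level with 1 direction in each fraction, 1.5-fold for TE, in both pairs for acidosis and for hypoxia. Depth was estimated from the smallest steps of FPKM, and counting errors cover counting only. The calls with both stresses were also run on simulated counts. These had the same depth in all libraries and counting noise only, a simpler setting than these data, so the outcome is not used as support. Genes were named as the 10 highest members, the 5 largest changes each way per effect and quantity, the 5 highest and lowest TE per condition, the RNA and hypoxia lists, and the 4 largest changes of the corepressor list. Fingers, KRAB and overlaps came from GENCODE release 29, and promoters from RefSeq GRCh38.p14. Alternatives changed the pseudocount, the minimum FPKM, the centring, the scaling and the TE fractions. Python 3.11.15, pandas 2.3.3, numpy 2.4.6, scipy 1.17.1 and matplotlib 3.10.9 were used.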

Additional observations from a re-analysis of the deposited data

Results flagged for a closer look

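Some members changed in TE in opposite directions in the 2 pairs of an effect, and the differences were not tested, since each condition had 1 library per fraction. Past 1.5-fold each way, these were 5 of 86 members with acidosis, against 5.65% of background loci, and 4 of 86 with hypoxia, against 5.49%, so such opposite changes were about as frequent over all loci. The largest are given here. All 6 differences contain the hypoxia-with-acidosis libraries. For acidosis, the TE change of ZNF532 was 3.66 in hypoxia and -0.74 in normoxia, a difference of 4.40 (log2). For ZNF862, which has no finger by the pattern used, it was 1.11 and -1.13, a difference of 2.24. For the KRAB gene ZNF480 it was 1.20 and -0.85, a difference of 2.05.

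For hypoxia, the TE change of ZNF532 was 3.51 at pH 6.0 and -0.89 at pH 7.4, a difference of 4.40. For ZNF862 it was 0.90 and -1.34, a difference of 2.24. For the KRAB gene ZNF688 it was 1.02 and -1.06, a difference of 2.09. The ZNF532 monosome value in hypoxia with acidosis came from about 31.7 fragments.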

How the results depend on the processing

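No paired analysis was possible because each condition and fraction had 1 library, which also leaves no replicate to leave out. Over 23 results and 11 alternative settings, 158 of 207 alternative values were labelled the same, 43 moved and 6 reversed. Causes were not tested. A median was labelled the same within a log2 shift of 0.58 (1.5-fold), and a count within 1.5-fold. Reversed meant a changed sign with either value at least 0.1 from 0. That shift is larger than the members' main medians, so a median near 0 could be labelled the same. With any mean above 0, the median TE in hypoxia with acidosis was 0.00 and not 0.39. Counts below are members called higher or lower. With a pseudocount of 0.1, TE with hypoxia had 12 higher (14.0%, background 8.83%). With any mean above 0 there were 285 members, and the added ones lie below the minimum of 3 FPKM kept for background loci. In level with both stresses 31 were lower (10.9%, background 13.6%). In TE 18 were higher with acidosis (6.32%, background 5.71%) and 15 with hypoxia (5.26%, background 7.76%). With both stresses 82 were higher in TE (28.8%, background 29.9%) and 29 lower (10.2%, background 30.8%). The share higher in TE with both stresses thus did not exceed the background share in this setting. With a minimum of 5 FPKM there were 48 members. In level 0 were lower with acidosis (background 0.297%) and 0 higher with hypoxia (background 2.25%). With both stresses 3 were higher in level (6.25%, background 12.4%) and 7 lower (14.6%, background 13.6%). In TE 4 were higher with acidosis (8.33%, background 5.71%), 2 with hypoxia (4.17%, background 7.76%) and 22 with both stresses (45.8%, background 29.9%). Without centring, 10 were lower in level with both stresses (11.6%, background 10.55%) and 4 higher in TE with hypoxia (4.65%, background 5.07%).

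Under the authors' RNA scaling, uncentred, the median log2 TE was 1.78 in hypoxia with acidosis, 1.24 in hypoxia, 1.89 in normoxia with acidosis and 1.72 in normoxia (background 1.63, 1.80, 2.53 and 2.21). This scaling moves all loci alike by 1 factor per library, so the changed sign in hypoxia and in normoxia with acidosis follows from the factors. There 25 were lower in level with both stresses (29.1%, background 20.6%). In TE, 16 were higher and 1 lower with acidosis (18.6% and 1.16%, background 12.2% and 4.70%). With hypoxia 0 were higher and 20 lower (0% and 23.3%, background 1.56% and 31.2%; median change -0.36, background -0.68). With both stresses 25 were lower (29.1%, background 48.4%; median change -0.025, background -0.53). With TE as polysome over oligosome, the normoxia median was -0.12. With acidosis 5 were then higher and 1 lower (5.81% and 1.16%, background 3.53% and 6.33%). With hypoxia 2 were higher and 0 lower (2.33% and 0%, background 4.26% and 4.81%). With both stresses 6 were lower (6.98%, background 26.4%). Over monosome and oligosome together, 1 was higher and 2 lower with hypoxia (1.16% and 2.33%, background 4.33% and 6.87%). With both stresses 7 were then lower (8.14%, background 28.9%). Members were also left out in 2 ways chosen after seeing the data. Without the 49 that overlap another gene, 37 remained, with a median TE of 0.11 in normoxia with acidosis. In level 0 were lower with acidosis (background 0.297%), and 1 was higher and 6 lower with both stresses (2.7% and 16.2%, background 12.4% and 13.6%). In TE 2 were higher and 0 lower with acidosis (5.4% and 0%, background 5.71% and 7.12%). With hypoxia 1 was higher and 2 lower (2.7% and 5.4%, background 7.76% and 10.5%). With both stresses 13 were higher and 5 lower (35.1% and 13.5%, background 29.9% and 30.8%). Without ZNF271, annotated as a pseudogene, and ZNF883, a name given to a coding gene and to a pseudogene, no value moved by this measure.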
